A study of Populus ussuriensis with 18 samples.

Results

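NAC transcription factors are a plant-specific family that binds DNA through a conserved domain at the N terminus, named after NAM, ATAF and CUC. In Arabidopsis, several members are switched on by drought, salt or the hormone abscisic acid (ABA), others act in flowering, organ boundaries or senescence, and both activators and repressors occur. The NAC transcripts described here are 6 of the 12994 transcripts in the table of root transcripts of Populus ussuriensis, and all 6 passed the filter on low values. They were chosen because their levels were known to move in these libraries, so their differences from 0 h are given as a description and without a p. A pair was annotated as homologous to NAC72, a further pair to NAC35, and the other transcripts to NAC2 and NAC90. Their IDs are f2p60_1192_9367 for NAC72 (1), f2p60_1426_25757 for NAC72 (2), f7p60_1432_25632 for NAC2, f6p60_949_11466 for NAC90, f2p60_1228_9087 for NAC35 (1) and f4p60_1183_28033 for NAC35 (2).

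The libraries came from roots of wild-type seedlings, 3 weeks after the stems were set to root, in 3 biological replicates at each time. The treated groups had been in liquid medium with 6% PEG, a polymer that holds water back from roots, for 6, 12 or 24 h, or for 48 or 120 h. The only control was the 0 h group, and no group stood in liquid medium without PEG, so PEG, transfer and elapsed time cannot be told apart. A replicate was a pool of roots from at least 6 seedlings. Levels are in FPKM, which is the number of fragments of a transcript set against its length and against the fragments mapped in that library.

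The NAC72 and NAC2 transcripts carry the names of NAC72 (RD26) and ATAF1, Arabidopsis activators that drought and ABA induce. NAC90 of Arabidopsis is known for holding back leaf senescence, and NAC35 (LOV1) for delaying flowering and for the response to cold. All 6 predicted proteins hold the NAM domain that defines the family. NAC72 (1) measured 1192 bp, NAC72 (2) 1426 bp, NAC2 1432 bp, NAC90 949 bp, NAC35 (1) 1228 bp and NAC35 (2) 1183 bp. The nearest Populus trichocarpa loci given for them lie on chromosome 1 for NAC72 (1), chromosome 5 for NAC2, chromosome 9 for NAC35 (1) and chromosome 4 for NAC35 (2), while none was at hand for NAC72 (2) and NAC90. How alike the sequences of a pair are was not analysed here, and RSEM shares fragments between near-identical transcripts, so the split within a pair is uncertain to that degree.

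The 18 libraries had FPKM sums of 1067374 to 1159874, with 865 to 1016 transcripts listed at 0. The steps between low FPKM values gave a rough depth of 14500000 to 21100000 fragments a library. On that estimate a library held 612 to 3800 fragments of NAC2, 303 to 1132 of NAC72 (2), 30 to 476 of NAC72 (1), 7 to 64 of NAC90, 6 to 91 of NAC35 (1) and 4 to 47 of NAC35 (2), so NAC90 and the NAC35 pair rest on the fewest fragments. Replicate 3 at 48 h stood apart, with the lowest mean correlation to its own time (0.961, against 0.970 for each of its 2 fellow replicates). The summed level of 4 root markers, nitrate uptake and suberin genes, was 161 to 167 FPKM at 6 h, 130 to 136 at 12 h, 145 to 151 at 24 h, 221 to 370 at 48 h and 384 to 614 at 120 h, against 649 to 686 at 0 h. All 4 were detected in every library, and they did not move as a group. At 0 h the sum was mostly that of the nitrate transporter NRT2.1, while at 12 and 24 h Cytochrome P450 86A1 was its largest part. The high-affinity nitrate transporter 2.1 had a mean of 25.4 FPKM at 12 h and 39.1 at 24 h, against 459 FPKM at 0 h. Cytochrome P450 86A1, a suberin enzyme, had 77.1 FPKM at 12 h and 75.5 at 24 h, against 66.3 FPKM at 0 h, and Cytochrome P450 86B1 had 26.0 and 24.3 FPKM, against 31.9 FPKM at 0 h. The summed level of 18 photosystem and chlorophyll-binding transcripts, markers of green tissue, was 996 to 1092 FPKM at 6 h, 1595 to 1663 at 12 h, 2126 to 2439 at 24 h, 3063 to 3379 at 48 h and 3424 to 4492 at 120 h, against 2292 to 2390 at 0 h, and 1 of the 18 was at 0 in some library. The part of either shift in the NAC values was not tested, and in these bulk samples fewer cells of a type and less RNA per cell cannot be told apart.

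NAC2 was high at 6 h alone, the NAC72 pair was above 0 h from 6 h on with its highest means at 12 h, and NAC90 and the NAC35 pair were below 0 h at all treated times. A transcript counted as up-regulated or down-regulated when its limma adjusted p was under 0.05 and its log2 change from 0 h was at least 1 in size, on the scale log2(FPKM + 1), over 12080 transcripts tested. Of the 6 NAC transcripts, the numbers past both thresholds over the 5 treated times in order were 5, 4, 2, 5 and 3. Among all transcripts the shares were 12.3%, 9.32%, 6.24%, 5.08% and 4.74%, and nothing is read from the contrast, since the transcripts were picked on it. By direction, 2 were higher and 3 lower at 6 h (7.0% and 5.34% of all transcripts), 2 higher and 2 lower at 12 h (5.73% and 3.59%), 0 higher and 2 lower at 24 h (4.43% and 1.81%), 2 higher and 3 lower at 48 h (3.23% and 1.85%) and 2 higher and 1 lower at 120 h (2.59% and 2.14%). Of the 19 such changes among 30 combinations of transcript and time, 8 were higher and 11 lower than 0 h. The highs belonged to the NAC72 pair and NAC2 and the lows to NAC90 and the NAC35 pair, and no transcript was past the thresholds in both directions. Several changes lay close to the fold minimum, with 1.06 in size for NAC35 (1) at 120 h and 1.07 for NAC72 (1) at 48 h just inside it, and 0.98 for NAC72 (1) and 0.96 for NAC72 (2) at 24 h just outside. The libraries of a treated time did not overlap those of 0 h in 27 of the 30 combinations. The number of transcripts set apart in this way was 6, 5, 5, 5 and 6 over the 5 times, against 68.8%, 67.3%, 53.1%, 45.2% and 47.1% of all transcripts in the order of times. Of the 4 root markers, 4, 2, 2, 2 and 1 fell past the same thresholds over the 5 treated times, only the nitrate transporters from 12 to 48 h and only Cytochrome P450 86B1 at 120 h, and of the 18 green-tissue markers 9 fell at 6 h, 1 fell at 12 h, none passed at 24 h, and 1 rose at each of 48 and 120 h.

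**Figure D1:**
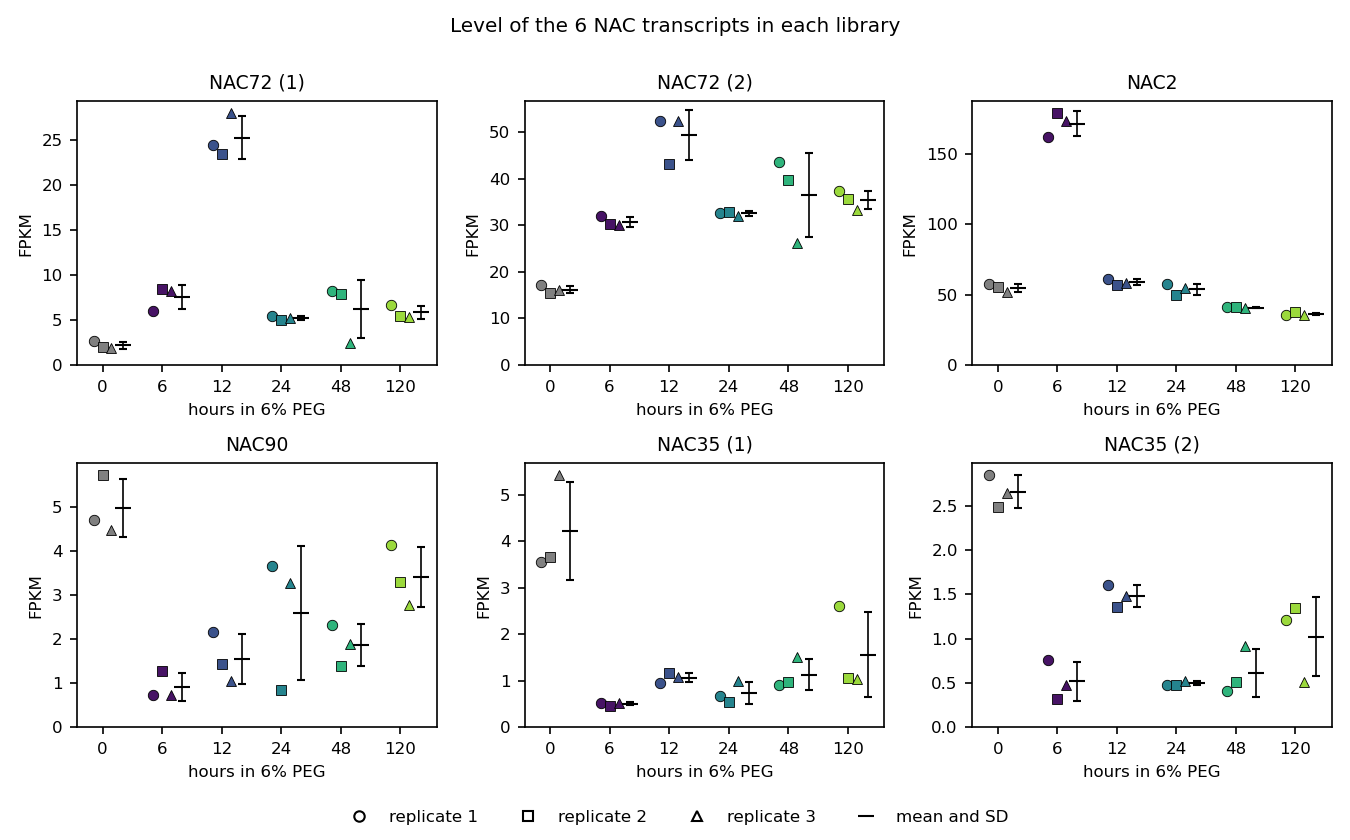
FPKM (vertical axis, starting at 0, a separate scale in each panel) of the 6 NAC transcripts in each of the 18 libraries, by hours in 6% PEG. Symbols mark the 3 replicates and the black bars the mean and SD. NAC2 stood at 162 to 179 FPKM at 6 h alone, the NAC72 pair had its highest means at 12 h, and NAC90 and the NAC35 pair were highest at 0 h.

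NAC72 (1) was the transcript with the largest change of the 6. It had 6.04, 8.47 and 8.22 FPKM at 6 h, 24.41, 23.4 and 27.97 at 12 h, followed by 5.47, 4.94 and 5.27 at 24 h, against 2.65, 2 and 1.86 FPKM at 0 h. In these 9 treated libraries it was above every 0 h library, and the 12 h libraries stood above all others. At 48 h it had 8.26, 7.93 and 2.48 FPKM, and at 120 h 6.7, 5.47 and 5.32 FPKM. The 48 h group overlapped 0 h through replicate 3 alone. The mean was 25.3 ± 2.40 FPKM at 12 h, against 2.17 ± 0.422 FPKM at 0 h (SD, n = 3 each), 11.6 times as high, and the log2 changes over the 5 treated times were 1.43, 3.05, 0.98, 1.07 and 1.11 (standard error 0.27). Levels at 6, 48, 120 and 24 h, in this order of their means, overlapped between neighbours, so only 12 h at the top is set apart from all other times. At the bottom, 0 h was apart from 24 h, next to it in this order, but not from 48 h.

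Without replicate 3 at 48 h, the mean of NAC72 (1) at that time was 8.10 FPKM (3.73 times that of 0 h) and its log2 change 1.53 with a standard error of 0.14. The call at 48 h was lost without replicate 1 (0.82) or replicate 2 (0.85) of 48 h and without replicate 3 of 0 h (0.996). Its change at 24 h passed the fold minimum without replicate 2 of 24 h (1.01) or replicate 1 of 0 h (1.09). In the replicate 3 library of 48 h the root markers went apart in both directions. High-affinity nitrate transporter 2.1 had 70.15 FPKM there, against 246.62 and 245.34 FPKM in replicates 1 and 2, and transporter 2.4 had 20.25, against 73.86 and 78.9 FPKM. Cytochrome P450 86A1 had 93.69 FPKM, against 35.45 and 34.98 FPKM, and Cytochrome P450 86B1 36.62, against 9.4 and 10.62 FPKM. The part of this in the low NAC72 level of that library was not tested.

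NAC72 (2) was the more abundant of the pair in all 18 libraries. It had 31.99, 30.21 and 30.16 FPKM at 6 h, 52.45, 43.27 and 52.47 at 12 h, followed by 32.76, 32.89 and 32.06 at 24 h, against 17.14, 15.48 and 16.05 FPKM at 0 h. At 48 h it had 43.52, 39.66 and 26.26 FPKM and at 120 h 37.4, 35.61 and 33.37 FPKM. Every treated library was above every 0 h library, and the lowest treated value, 26.26 FPKM, was again that of replicate 3 at 48 h. The mean of 12 h, 49.4 ± 5.31 FPKM, was 3.05 times that of 0 h, 16.2 ± 0.844 FPKM (SD, n = 3 each), and the log2 changes at the 5 treated times were 0.88, 1.54, 0.96, 1.09 and 1.08 (standard error 0.13). In the order of means, 12, 48 and 120 h overlapped their neighbours, and 24 h, 6 h and 0 h each lay below the time before them without overlap. The 48 h libraries, at 26.26 to 43.52 FPKM, nevertheless spanned those of 24 and 6 h, so the places of these 3 times are not settled. NAC72 (2) was up-regulated at 12, 48 and 120 h, and at 6 and 24 h its mean was 1.90 and 2.01 times that of 0 h without reaching the fold minimum on the log2 scale. Its change at 48 h was 1.31 without replicate 3 of 48 h, and fell under the minimum without replicate 1 of 48 h (0.95). At 24 h it reached 1.002 without replicate 1 of 0 h.

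The NAC72 pair was also compared with itself, as the log2 ratio of NAC72 (1) over NAC72 (2) in each library. FPKM of the first was 0.465, 0.541 and 0.533 times that of the second in the 12 h libraries and 0.189, 0.280 and 0.273 times in those of 6 h, against 0.155, 0.129 and 0.116 times at 0 h. At 24 h the ratios of FPKM were 0.167, 0.1502 and 0.164, at 48 h 0.190, 0.200 and 0.0944, and at 120 h 0.179, 0.154 and 0.159. The 12 h libraries thus stood apart from all others, and the lowest ratio was that of replicate 3 at 48 h. On the log2(FPKM + 1) scale the ratio averaged -2.03 ± 0.64 in the 15 treated libraries and -2.45 ± 0.13 in the 3 of 0 h, a difference of 0.42 (two-sided exact permutation test over 816 splits, p = 0.2586, adjusted over 4 ratio tests p = 0.2586). It averaged -1.76 ± 0.67 in the 9 early libraries (6, 12 and 24 h) and -2.45 ± 0.28 in the 6 late ones (48 and 120 h), a difference of 0.69 (exact permutation test over 5005 splits, p = 0.03676, adjusted p = 0.07352). Neither difference passed after adjustment. Both transcripts had been chosen for moving in these libraries, so the ratio tests of either pair are not independent of that choice. These tests treat the libraries of all times as exchangeable, so their p also holds differences between times within a group, and the mean log2 ratios of the early times were -1.90 (6 h), -0.94 (12 h) and -2.43 (24 h), the last close to those of 48 h (-2.47) and 120 h (-2.42). The smallest p these tests could give is 0.001225 for treated against 0 h and 0.0001998 for early against late.

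**Figure D2:**
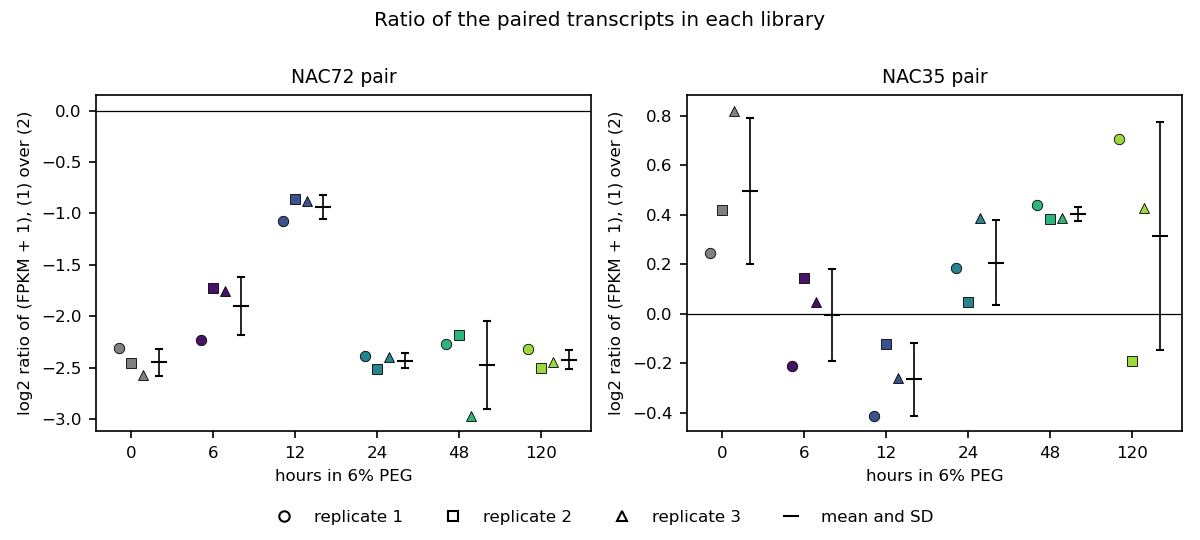
Log2 ratio of (FPKM + 1) of the first over the second transcript (vertical axis) of the NAC72 pair (left) and the NAC35 pair (right) in each library, by hours in 6% PEG. Symbols mark the 3 replicates, black bars the mean and SD, and the thin line a ratio of 1. The NAC72 ratio was highest in the 3 libraries of 12 h, at -1.07 to -0.86, and lowest in replicate 3 at 48 h, at -2.97, while the NAC35 ratio was lowest at 12 h, at -0.41 to -0.12.

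NAC2, named after ATAF1, had the highest mean of the 6 at every time, overlapping NAC72 (2) at 48 and 120 h, and was past the thresholds at 6 h alone. It had 161.95, 178.9 and 173.84 FPKM at 6 h, against 57.33, 55.62 and 51.86 FPKM at 0 h. That is 172 ± 8.70 against 54.9 ± 2.80 FPKM (SD, n = 3 each), 3.12 times as high, with a log2 change of 1.63 (standard error 0.058). The lowest 6 h library, at 161.95 FPKM, stood far above the highest of any other time, at 61.41 FPKM. At 12 h the level was 61.41, 56.96 and 58.31 FPKM and at 24 h 57.52, 49.65 and 54.65 FPKM, and both overlapped 0 h, with log2 changes of 0.10 and -0.03. At 48 h it was 40.9, 41.09 and 40.3 FPKM and at 120 h 35.48, 37.44 and 35.87 FPKM, every one below the lowest 0 h library. These late changes of -0.42 and -0.59 were under the fold minimum. In the order of means, 12, 0 and 24 h overlapped, while 6 h above them and 48 and then 120 h below them did not overlap their neighbours. The step between 6 and 12 h was -1.53 (standard error 0.058), as 12 h minus 6 h. Without replicate 3 at 48 h the NAC2 change at that time was -0.41, against -0.42 with it.

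Together the 6 transcripts summed to 212 ± 9.002 FPKM at 6 h, 138 ± 8.72 at 12 h, 95.6 ± 5.72 at 24 h, 87.1 ± 12.1 at 48 h and 83.5 ± 4.37 at 120 h, against 85.2 ± 2.96 FPKM at 0 h (SD, n = 3 each). FPKM is per length, so levels can be set side by side. NAC2 made up 81.0% of that sum at 6 h, 42.9% at 12 h, 56.4% at 24 h, 47.4% at 48 h and 43.5% at 120 h, against 64.5% at 0 h. From 12 h on, the share of each NAC72 transcript was above that of 0 h. NAC72 (2) made up 14.6% at 6 h, 35.8% at 12 h, 34.2% at 24 h, 41.4% at 48 h and 42.4% at 120 h, against 19.0% at 0 h. NAC72 (1) reached its greatest share at 12 h, with 18.4%, against 2.54% at 0 h. The remaining 3 transcripts were each at 5.85% or less at every time.

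**Figure D3:**
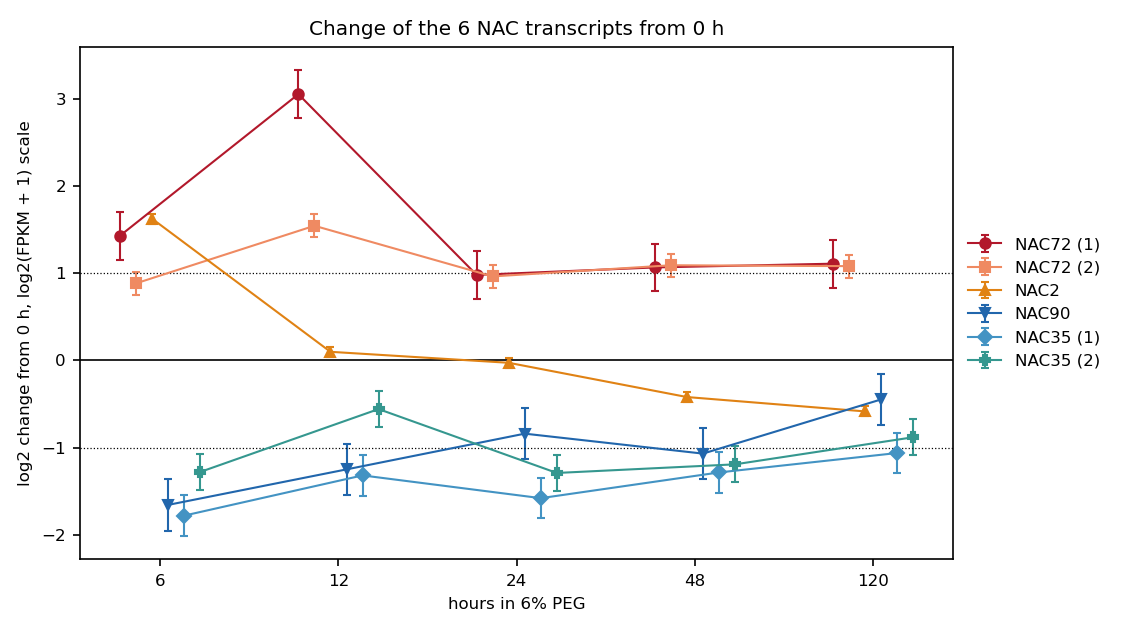
Log2 change from 0 h on the log2(FPKM + 1) scale (vertical axis) of the 6 NAC transcripts by hours in 6% PEG, for the 5 treated times. Points are the differences between means of 3 libraries, bars their standard errors and dotted lines the fold minimum of 1 in either direction. NAC72 (1) peaked at 3.05 at 12 h, NAC2 reached 1.63 at 6 h and -0.59 at 120 h, and NAC90 and the NAC35 pair stayed between -1.78 and -0.45.

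NAC90 was lower than at 0 h in every treated library, with its lowest mean at 6 h. It had 0.73, 1.27 and 0.72 FPKM at 6 h and 2.16, 1.43 and 1.05 FPKM at 12 h, against 4.72, 5.74 and 4.49 FPKM at 0 h. At 24 h it had 3.67, 0.85 and 3.27 FPKM, at 48 h 2.33, 1.38 and 1.89 and at 120 h 4.14, 3.3 and 2.78. No treated library overlapped 0 h, although replicate 1 of 120 h, at 4.14 FPKM, came near the lowest 0 h library, at 4.49 FPKM. The mean at 6 h was 0.907 ± 0.315 FPKM, against 4.98 ± 0.665 FPKM at 0 h (SD, n = 3 each), which is 0.182 times as high, and the log2 changes at the 5 treated times were -1.66, -1.25, -0.84, -1.07 and -0.45 (standard error 0.29). NAC90 was down-regulated at 6, 12 and 48 h. At 24 h replicate 2 was far below its fellows, and the change was -0.42 without it, but -1.08 without replicate 1 and -1.02 without replicate 3 of 24 h. The call at 48 h was lost without replicate 2 of 48 h (-0.94) or replicate 2 of 0 h (-0.98). Levels at 120, 24, 48, 12 and 6 h, in this order of their means, overlapped between neighbours.

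NAC35 (1) was down-regulated at all 5 treated times. It had 0.52, 0.46 and 0.52 FPKM at 6 h, 0.96, 1.17 and 1.07 at 12 h, followed by 0.68, 0.53 and 0.99 at 24 h, against 3.56, 3.66 and 5.43 FPKM at 0 h. At 48 h it had 0.91, 0.97 and 1.51 FPKM and at 120 h 2.61, 1.05 and 1.03 FPKM. All 15 treated libraries were below the lowest of 0 h, and the highest of them was replicate 1 at 120 h. The mean at 6 h, 0.5 ± 0.0346 FPKM, was 0.119 times that of 0 h, 4.22 ± 1.05 FPKM (SD, n = 3 each), and the log2 changes were -1.78, -1.32, -1.58, -1.28 and -1.06 (standard error 0.23). In the order of means, 120, 48, 12 and 24 h overlapped between neighbours, while 0 h above and 6 h below them were set apart. At levels this low the added 1 FPKM shrinks the log2 change, and with 0.1 FPKM added in its place the change at 6 h was -2.82. At 120 h the change was -1.34 without replicate 1 of that time, and the call was lost without replicate 2 (-0.93) or replicate 3 (-0.92) of 120 h or replicate 3 of 0 h (-0.90). Replicate 1 of 120 h also had the highest green-tissue sum, 4492 FPKM against 3475 and 3424 FPKM in replicates 2 and 3, and lower nitrate transporters, with 255.39 FPKM of High-affinity nitrate transporter 2.1 against 438.46 and 439.18 FPKM. The suberin marker Cytochrome P450 86A1 had 35.51 FPKM there, against 35.52 and 34.04 FPKM. The part of these levels in its NAC35 level was not tested.

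NAC35 (2) was down-regulated at 6, 24 and 48 h. Its level was 0.76, 0.32 and 0.47 FPKM at 6 h, 1.61, 1.36 and 1.48 at 12 h, followed by 0.48, 0.48 and 0.52 at 24 h, against 2.85, 2.48 and 2.64 FPKM at 0 h. At 48 h the libraries had 0.41, 0.51 and 0.92 FPKM and at 120 h 1.21, 1.34 and 0.51 FPKM. All treated libraries were below 0 h, and the 12 h libraries stood above those of every other treated time. The mean at 24 h, 0.493 ± 0.0231 FPKM, was 0.186 times that of 0 h, 2.66 ± 0.186 FPKM (SD, n = 3 each), and the log2 changes were -1.28, -0.56, -1.29, -1.19 and -0.88 (standard error 0.21). The step between 6 and 12 h was 0.72 and that between 12 and 24 h -0.73 (standard error 0.21 each, later minus earlier). Levels at 120, 48, 6 and 24 h overlapped between neighbours in this order of means. With 0.1 FPKM added in place of 1, the change of NAC35 (2) at 120 h was -1.39 and past both thresholds. The change at 120 h was -1.0, just past the fold minimum, without replicate 2 of 120 h and -0.68 without replicate 3.

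FPKM of NAC35 (1) was 0.684, 1.44 and 1.11 times that of NAC35 (2) at 6 h, 0.596, 0.860 and 0.723 times at 12 h and 1.42, 1.104 and 1.90 times at 24 h, against 1.25, 1.48 and 2.06 times at 0 h. At 48 h it was 2.22, 1.90 and 1.64 times and at 120 h 2.16, 0.784 and 2.02 times. NAC35 (2) was thus the higher of the pair in every 12 h library and in none of 0, 24 and 48 h. The log2 ratio averaged 0.13 ± 0.32 in the 15 treated libraries and 0.50 ± 0.29 in the 3 of 0 h, a difference of -0.36 (two-sided exact permutation test, p = 0.09314, adjusted p = 0.1242). In the 9 early libraries it averaged -0.02 ± 0.25 and in the 6 late ones 0.36 ± 0.29, a difference of -0.38 (exact permutation test, p = 0.02038, adjusted p = 0.07352). Neither passed after adjustment over the 4 ratio tests. The early against late difference passed without replicate 3 of 24 h (-0.43, exact permutation adjusted p = 0.04264) or replicate 2 of 120 h (-0.49, adjusted p = 0.01399). With any other single library left out, its exact permutation adjusted p was 0.05328 to 0.1319. Nothing is read from the runs that passed. As for the NAC72 pair, the transcripts were chosen for moving here, and the p also holds differences between times within a group.

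The other 5 transcripts stand in the NAC section of the study's list of changed transcription factors, a list the study made on these samples. All but 1 of them hold the NAM domain, and the exception encodes a nascent polypeptide-associated complex subunit beta, a ribosome-bound chaperone component that shares the abbreviation NAC and is no transcription factor of the family. Of the 5, 2 rose and 2 fell at 6 h, none passed at 12 h, 1 rose at 24 h, and none passed at 48 or 120 h. Among all transcripts 7.0%, 5.73%, 4.43%, 3.23% and 2.59% rose and 5.34%, 3.59%, 1.81%, 1.85% and 2.14% fell over the 5 times. Nothing is read from that contrast, since the list was made on these samples. The median log2 change of the 5 was 0.98, 0.65, 0.24, 0.11 and -0.21 over the 5 treated times, against 0.01, -0.04, 0.00, -0.02 and -0.04 over all transcripts tested.

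JUNGBRUNNEN 1 (NAC42, f2p60_1234_9281), which hydrogen peroxide induces and which delays senescence in Arabidopsis, had 36.94, 37.01 and 40.65 FPKM at 6 h and 23.35, 20.85 and 22.63 FPKM at 12 h, against 14.9, 13.94 and 12.8 FPKM at 0 h. Like NAC2, it was past the thresholds at 6 h alone, with a log2 change of 1.40 (standard error 0.28). Its 48 h libraries had 30.22, 33.29 and 12.1 FPKM, and without replicate 3, which was at the 0 h level, the change at 48 h was 1.14 and past the thresholds, against 0.70 with it. NAC83 (VNI2, f2p60_1123_9939), known in Arabidopsis for repressing xylem vessel genes, had 21.46, 24.77 and 22.36 FPKM at 24 h, against 7.02, 10.54 and 10.74 FPKM at 0 h, a log2 change of 1.21 (standard error 0.16). Its 6 h change of 0.98 and 12 h change of 0.91 were under the minimum. In replicate 3 of 48 h it had 12.64 FPKM, against 20.8 and 19.87 FPKM in replicates 1 and 2, and without that library its 48 h change was 1.05 and past the thresholds, against 0.84 with it. The NAC72 pair, JUNGBRUNNEN 1 and NAC83 were therefore all lower in that library than in both fellow replicates, and so, by less than 1 FPKM, was NAC2, while both NAC35 transcripts were higher in it than in both.

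The pair of NAC29-like transcripts was down-regulated at 6 h alone. NAC29 (NAP) promotes leaf senescence in Arabidopsis. The first (f2p60_1906_22508) had 3.55, 4.43 and 4.54 FPKM at 6 h, against 8.85, 11.66 and 10.62 FPKM at 0 h, and the second (f3p60_1826_22964) had 10.22, 12.07 and 11.5 FPKM at 6 h, against 25.08, 25.75 and 25.21 FPKM at 0 h. Their 6 h changes were -1.13 (standard error 0.13) and -1.11 (standard error 0.078). They match the same P. trichocarpa locus on chromosome 14, so how fragments were split between them is uncertain, and their best protein match was NAC29 by translated search and NAC72 by protein search. The nascent polypeptide-associated subunit (f2p13_719_13897) had 234.17, 215.67 and 243.79 FPKM at 6 h, against 113.15, 104.25 and 119.53 FPKM at 0 h, a change of 1.04 (standard error 0.069).

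**Figure D4:**
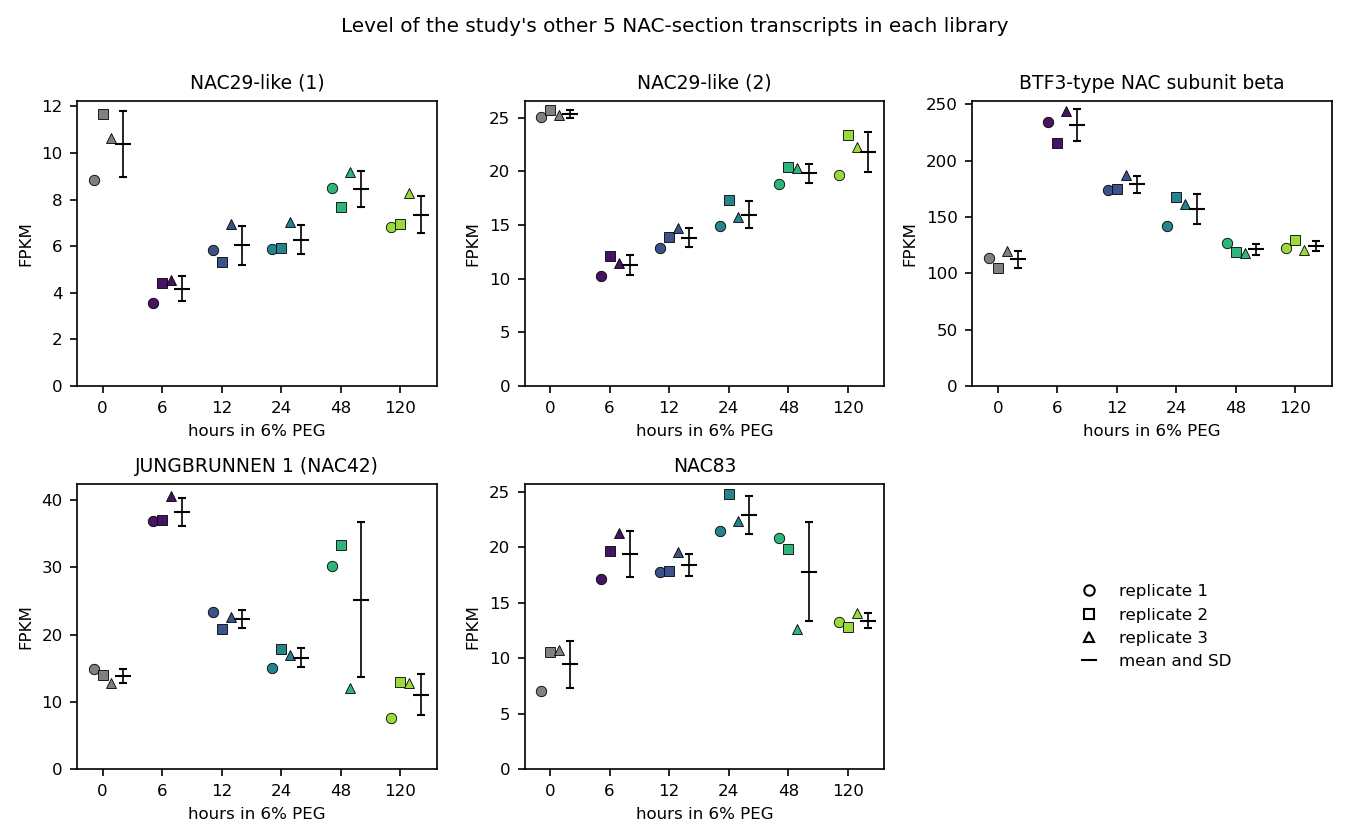
FPKM (vertical axis, starting at 0, a separate scale in each panel) of the other 5 transcripts of the study's NAC section in each library, by hours in 6% PEG, with symbols for the 3 replicates and black bars for the mean and SD. JUNGBRUNNEN 1 and the nascent polypeptide-associated subunit were highest at 6 h, the NAC29-like pair was lowest there, and replicate 3 at 48 h was low for JUNGBRUNNEN 1 (12.1 FPKM) and NAC83 (12.64 FPKM).

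ABA is made from carotenoids by 9-cis-epoxycarotenoid dioxygenases, is bound by PYL receptors, and acts by blocking type 2C protein phosphatases, which otherwise hold the pathway shut. NAC72 and ATAF1 are among the factors this hormone induces in Arabidopsis. The study's ABA list, made on these samples, has 14 transcripts, of which 2, 4, 1, 3 and 3 rose and 5, 7, 5, 7 and 6 fell past both thresholds over the 5 treated times in order. Among all transcripts 7.0%, 5.73%, 4.43%, 3.23% and 2.59% rose and 5.34%, 3.59%, 1.81%, 1.85% and 2.14% fell. Nothing is read from the contrast, since the list was made on these samples. The median log2 change of the 14 was -0.78, -0.80, -0.20, -0.57 and -0.41, against 0.01, -0.04, 0.00, -0.02 and -0.04 over all transcripts tested. NCED1 (f2p21_2499_2742), of the rate-limiting step of synthesis, had 22.62, 23.53 and 23.97 FPKM at 12 h, against 0.52, 0.44 and 0.42 FPKM at 0 h, a log2 change of 4.06 (standard error 0.16) and the largest rise of the list at that time. At 12 h the NAC72 pair also had its highest levels. Protein phosphatase 2C 3 (f2p60_1754_23479) had the largest rises at 6 and 24 h, of 1.63 and 1.48 (standard error 0.12), and carotenoid cleavage dioxygenase 4 (f7p60_2153_21415), which cleaves carotenoids, those at 48 and 120 h, of 1.68 and 1.73 (standard error 0.18). At every treated time the largest fall was that of the receptor homologue PYL4 (f2p60_1246_27481), with 67.1 FPKM at 6 h, 82.9 at 12 h, 49.7 at 24 h, 27.6 at 48 h and 17.6 at 120 h, against 245 FPKM at 0 h (means, n = 3). At 48 h its libraries had 18.16, 19.35 and 45.3 FPKM, so replicate 3 was nearer to 0 h for this transcript as well. Its change was -3.23 with that library and -3.64 without it. The study's own fold changes differ for some of this list. They put protein phosphatase 2C 3 under the fold minimum at 24, 48 and 120 h and give PYL4 smaller falls at those times. For f2p60_653_34458, lower in FPKM at every treated time, the study lists rises. The reason was not tested.

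The transcripts with the most similar course were sought among 672 others that were tested and have a protein name, by the root mean square (RMS) difference of the 5 log2 changes, which all share the 0 h libraries. For NAC72 (1) the nearest was protein phosphatase 2C 3, with an RMS difference of 0.42 and log2 changes of 1.63, 2.62, 1.48, 1.60 and 1.47, followed by cytochrome P450 98A2, an enzyme of phenylpropanoid synthesis (0.48), and the chaperone DnaJ 11 (0.54). For NAC72 (2) they were amino acid permease 3 (0.21), the homeobox-leucine zipper protein ATHB-7, a water-stress and ABA-induced factor of Arabidopsis (0.23), and cytochrome b6-f complex subunit 7 (0.26). NAC72 (1) and NAC72 (2) were 0.72 apart. The named transcripts were picked as the nearest of 672, so their smaller differences follow in part from that choice. The protein names came in part from the study's lists of changed transcripts, made on these samples. The 672 are therefore no even sample of all transcripts.

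NAC2 was nearest to a heat shock cognate 70 kDa chaperone (0.27), the sodium/calcium exchanger NCL (0.27) and IAA27, a repressor of auxin responses (0.32). Each of them was highest at 6 h in these libraries. The log2 change of NCL was 1.55 at 6 h and 0.55 at 12 h. The study lists the same NCL transcript as lowered at the first treated time, which is the opposite direction. The reason for this disagreement was not tested, so the likeness of NCL to NAC2 holds for the FPKM values alone. The same limit applies to protein phosphatase 2C 3 and NAC72 (1), since the study's sizes for that phosphatase differ as well. NAC90 was nearest to the DELLA protein GAI1, a repressor of gibberellin responses (RMS difference 0.25), the ubiquitin ligase XBOS34 (0.28) and the AAA-ATPase ASD (0.28). The smallest RMS differences of the 18 were those of NAC35 (1), with glutamate receptor 2.7 (0.14), the calcium-binding protein KIC (0.15) and ABC transporter A family member 2 (0.15). NAC35 (2) was nearest to glutathione transferase GST 23 (0.23), indeterminate-domain protein 12 (0.24) and GATA transcription factor 5 (0.34). Among the 6 themselves, NAC90, NAC35 (1) and NAC35 (2) were 0.44 to 0.45 apart, and NAC72 (1) and NAC35 (1) were farthest apart at 3.04. With 0.1 in place of 1 FPKM added, the RMS differences of the low transcripts from the same named ones were 0.51 to 0.69 for NAC90, 0.65 to 0.79 for NAC35 (2), and 0.63 and 0.79 for NAC35 (1) with KIC and the ABC transporter, while glutamate receptor 2.7 stayed near it at 0.19. ATHB-7 was then 0.49 from NAC72 (2), and the values of NAC2 were 0.28 to 0.31.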

How the data were processed

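Root RNA of 18 samples was sequenced, and the authors deposited FPKM per transcript, made by mapping paired-end reads to PacBio full-length transcripts and quantifying them with RSEM 1.2.31 (HTSeq 0.6.0 is also named in the submitters' processing notes). Read counts were not used here. Column codes carry no time and were taken by their numbers as 0 h and the 5 treated times, the final digit being the replicate, and for 5 of 5 treated times the column nearest to the study's time-labelled fold changes (122 transcripts) was the one assigned. The columns of those fold changes were used for nothing else. Depth was estimated from the spacing of low FPKM values, assuming an effective length 320 bp under the full one. No test used it, and the spread between replicates stands for the precision.

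FPKM were transformed to log2(FPKM + 1), and 12080 transcripts were tested, each reaching 1 FPKM in 3 or more libraries. One limma 3.58.1 model (R 4.3.3) covered the 18 libraries, with the 6 times as groups, 12 residual degrees of freedom, an intensity trend and robust moderation, and p-values were adjusted by Benjamini-Hochberg over all transcripts. The model was also run on normal values simulated from these data, which cannot show how well it suits FPKM. Ratios of transcript pairs were compared by exact permutation over libraries, adjusted over the 4 tests. Figures and summaries used Python 3.11.15, pandas 2.3.3, numpy 2.4.6 and matplotlib 3.10.9. Replicates are pools of seedlings, so the limma p measures the spread between pools, while the permutation p of a ratio also holds differences between the times of a group.

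The transcripts described and all lists were chosen with earlier results of these data known. Named are the 6 NAC transcripts, the other 5 of the study's NAC section, at each time the ABA-list transcript with the largest rise and fall past the thresholds that has a protein name, and for each NAC transcript the 3 named transcripts of smallest RMS difference. Names come from annotation covering 1057 transcripts, 683 of them with a protein name. Alternatives were 0.1 FPKM added, no filter, at least 5 FPKM in 3 libraries, equal FPKM sums, median-of-ratios scaling, limma without trend and robust moderation, only the libraries of both times compared, a replicate block, and each library left out.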

Additional observations from a re-analysis of the deposited data

Results flagged for a closer look

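NAC2 was the transcript of the 6 whose libraries were all above the mean of 0 h at some treated times (6 and 12 h) and all below it at others (48 and 120 h). Its log2 change at 6 h exceeded that at 120 h by 2.21, with 172 ± 8.70 FPKM at 6 h and 36.3 ± 1.04 FPKM at 120 h, against 54.9 ± 2.80 FPKM at 0 h (SD, n = 3 each). The difference was not tested, since NAC2 had been picked on these contrasts.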

How the results depend on the processing

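All 30 log2 changes of the 6 transcripts kept their sign without a filter, with 0.1 FPKM added, under both other scalings and without trend and robust moderation, as did the 15 of the 3 transcripts that reach 5 FPKM. Of the log2 changes and RMS differences of named transcripts recomputed under the alternatives, 2353 moved by less than 1 SD between replicates and 40 by more. The 2353 include the values that could not move, and no change past both thresholds turned its sign. Leaving out single libraries turned the sign of 2, both of NAC2 at 24 h. Past both thresholds were 4 of the 6 transcripts at 24 h with 0.1 FPKM added, against 2 with 1 FPKM, and 4 at 120 h, against 3, through NAC35 (2). With at least 5 FPKM in 3 libraries, NAC90 and the NAC35 pair were left out by construction, and 2, 2, 0, 2 and 2 were past them over the 5 treated times in order. With single libraries left out the number was 5 at 6 h, 4 at 12 h, 2 to 4 at 24 h, 3 to 5 at 48 h and 2 to 3 at 120 h. With only the libraries of both times compared, NAC72 (1) lost its call at 48 h. Without single libraries, the early against late difference of the NAC35 ratio was -0.49 to -0.31, the treated against 0 h difference -0.49 to -0.20, and those of the NAC72 ratio 0.58 to 0.78 and 0.33 to 0.48.

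Same-numbered replicates of 0 h and a treated time did not deviate together (15 correlations between -0.093 and 0.102, 1 of them over 0.1). No pairing by replicate number was thus seen, and pairing among the treated times was not examined. With the replicate block the number of the 6 past both thresholds was 5, 4, 2, 5 and 3 at the 5 treated times, as without it, and permuting the ratios within replicate numbers gave adjusted p of 0.2778 and 0.106 for NAC72 and 0.1296 and 0.106 for NAC35 (treated against 0 h, then early against late).

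NAC90 and the NAC35 pair rest on few fragments per library, and their log2 changes depend on the amount added before the transformation.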
